A study of Mus musculus with 5 samples.

Results

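Proteasome subunits and deubiquitinases were examined in RNA-seq libraries of CD45-sorted lung leukocytes from tumour-bearing mice. The members were all rows whose gene symbol begins with Psma to Psmg or Usp and a number, or with Otub, Otud or Uch. Psmb8, Psmb9 and Psmb10, the catalytic subunits of the immunoproteasome, were left out. The rule found 102 of the 14462 rows of the deposited table, 46 in the proteasome family and 56 among the deubiquitinases. Of the 46 proteasome rows, 2 carry a matching name without encoding a subunit. These are Psmc3ip, a meiotic recombination factor, and Psme3ip1, a protein that binds a proteasome activator.

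The mice bore MC38/MC38 tumours, per the labels; MC38 is a mouse colon adenocarcinoma cell line. The protocols state that MC38 tumours were irradiated and that lungs were taken 3 days later. The 3 libraries labelled ctrl and the 2 labelled IR share the tumour model, the tissue and the sort for CD45, a surface protein of all leukocytes, and differ in the treatment label. The labels give no dose, strain, sex or age. They also do not say that each library stands for its own mouse, so a p-value here covers the spread among these libraries, and that spread may be technical. The values are read counts that the authors scaled between libraries, called scaled reads below.

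The proteasome is a barrel-shaped protease that degrades proteins tagged with ubiquitin. Its core particle, the 20S, is built of alpha and beta rings with the proteolytic sites inside, and its cap, the 19S, binds ubiquitin chains, unfolds the substrate and feeds it into the core. Deubiquitinases are proteases that cut ubiquitin from proteins, and they reverse or edit the signals that lead to degradation, endosomal sorting, DNA repair and NF-kB activation. In leukocytes the proteasome also makes the peptides that are shown on MHC class I.

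Library totals ran from 7232126 to 8414753 scaled reads. Ptprc, which encodes CD45, was 15842.1, 15543.0 and 15788.0 in ctrl and 17369.3 and 27246.5 in IR, so the labelled cell type carried its defining marker. The summed level of 8 neutrophil markers ran from 25520.5 to 45836.4 scaled reads in ctrl and was 63379 and 120645 in IR. All 8 were above ctrl in both IR libraries, and 4 rose by the limma test used below. The summed level of 7 T cell markers ran from 3775 to 4098 in ctrl and was 2556 and 2222 in IR, and 1 of the 7 fell. The 6 B cell markers summed to between 4882.6 and 8696.1 in ctrl and to 5043.8 and 3932.1 in IR. All 6 had negative log2 fold changes, with a median of -0.64, and 1 of them, Ebf1, fell. The 6 alveolar macrophage markers summed to 12066.0, 13101.2 and 12833.5 in ctrl and to 12691.8 and 11699.5 in IR. IR replicate 1 thus lay within ctrl. Of the 6, 0 passed and 3 were below ctrl in both IR libraries, with a median log2 fold change of -0.46. In this set 4 were negative and 2 positive (Chil3 at 0.18 and Siglecf at 0.08). RNA of lung epithelium, which the sort should remove, was present in all libraries. Its 7 markers summed to between 21468 and 24912 in ctrl and to 110302 and 53353 in IR. Most of that sum was Scgb1a1, a secretory cell gene, at 18790.0, 23115.0 and 19328.0 in ctrl and 103972.0 and 50988.8 in IR, the 1 marker of the 7 that rose. The others went both ways: Sftpb and Krt18 were above ctrl in both IR libraries, Epcam was below ctrl in both (185.1, 133.4 and 171.6 in ctrl and 45.8 and 74.8 in IR), and Cdh1, Krt8 and Sftpc overlapped. Markers of fibroblasts were at or near 0 (0 to 38.6 summed). The part of these cells in the results that follow was not tested. In bulk libraries, fewer cells of a type and less RNA per cell cannot be told apart.

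Promoter sequences are shown for 3 members. Psmc1 and Usp36 had the smallest p-value in their family, and Psmb6 holds a match directly before its start site. Each run is the gene's strand from 250 bases before to 50 bases after the transcription start in RefSeq, build GRCm38.p6. These windows are chr12:100109952-100110251 (plus strand), chr11:118290195-118290494 (minus strand) and chr11:70525107-70525406 (plus strand). Capitals mark the letters TGACNNNGC, on either strand, the core of the antioxidant response element. This element is bound by Nfe2l1 and Nfe2l2, transcription factors known to induce proteasome genes when proteolysis falls short.
Psmc1: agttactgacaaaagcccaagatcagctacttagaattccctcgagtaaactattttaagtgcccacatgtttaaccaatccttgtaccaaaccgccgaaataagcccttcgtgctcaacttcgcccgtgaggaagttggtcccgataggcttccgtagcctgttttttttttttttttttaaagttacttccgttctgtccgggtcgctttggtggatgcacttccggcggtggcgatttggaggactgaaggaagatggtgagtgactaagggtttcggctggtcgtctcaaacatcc
Usp36: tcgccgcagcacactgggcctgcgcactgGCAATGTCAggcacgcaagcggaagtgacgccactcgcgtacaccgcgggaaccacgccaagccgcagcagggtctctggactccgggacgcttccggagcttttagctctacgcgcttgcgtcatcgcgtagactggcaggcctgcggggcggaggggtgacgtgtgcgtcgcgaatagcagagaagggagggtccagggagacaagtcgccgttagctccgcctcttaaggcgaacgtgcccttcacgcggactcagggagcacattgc
Psmb6: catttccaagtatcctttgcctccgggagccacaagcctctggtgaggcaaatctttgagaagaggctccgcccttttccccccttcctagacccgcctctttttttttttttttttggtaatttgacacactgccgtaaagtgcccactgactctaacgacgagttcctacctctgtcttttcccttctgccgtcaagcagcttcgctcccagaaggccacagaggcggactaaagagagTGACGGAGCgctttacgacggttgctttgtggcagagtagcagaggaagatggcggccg

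These letters were in 6 of the 43 windows found for 39 proteasome rows (14.0%), in 11 of the 47 windows found for 43 deubiquitinase rows (23.4%) and in 14.4% of the 12417 windows of all tested genes. The deubiquitinase windows include those of Usp26, which holds matches, and Usp50, both too low to be tested. The 6 proteasome genes with a match were Psmb5, Psmb6, Psmc6, Psmd9, Psmd12 and Psme4. None of the 6 passed the test between IR and ctrl. A match describes letters in this window and shows no binding. Nfe2l1 itself was 877.3, 1102.6 and 781.1 in ctrl and 968.4 and 838.0 in IR, with overlapping groups (log2 fold change -0.02 ± 0.23 SE, limma adjusted p = 0.982). Nfe2l2 was 1364.0, 1554.7 and 1372.4 in ctrl and 1512.4 and 2605.7 in IR, with IR replicate 2 above every other library and IR replicate 1 within ctrl (log2 fold change 0.48 ± 0.23 SE, limma adjusted p = 0.323). Without IR replicate 1, Nfe2l2 passed as higher (limma adjusted p = 0.0260).

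No proteasome member passed the test between IR and ctrl. All 46 rows had values high enough to be tested, which required at least 10 scaled reads in at least 2 libraries. With limma, 0 passed at an adjusted p under 0.05, where 1.50% of the 12777 genes tested did, and 2 had an unadjusted p under 0.05 (Psmc1 and Psmd14), where 15.0% of all genes did. The median log2 fold change, IR against ctrl on the log2(value + 1) scale, was -0.04 for the proteasome family and -0.05 for all genes tested. Its middle 50% lay between -0.34 and 0.19, against -0.53 and 0.41 for all genes, and 0 of the 46 reached 1 in either direction. The extremes were -0.88 (Psmg3) and 0.83 (Psme2). IR and ctrl libraries did not overlap for 10 members, against 31.5% of all genes tested. In 5 of these IR lay above all ctrl libraries and in 5 below, which is 10.9% of the family each, where 15.2% of all genes lay above and 16.3% below. The summed level of the 46 rows was 17258.5 to 20165.7 scaled reads in ctrl and 18740 and 19338 in IR, so the groups overlapped.

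**Figure D1:**
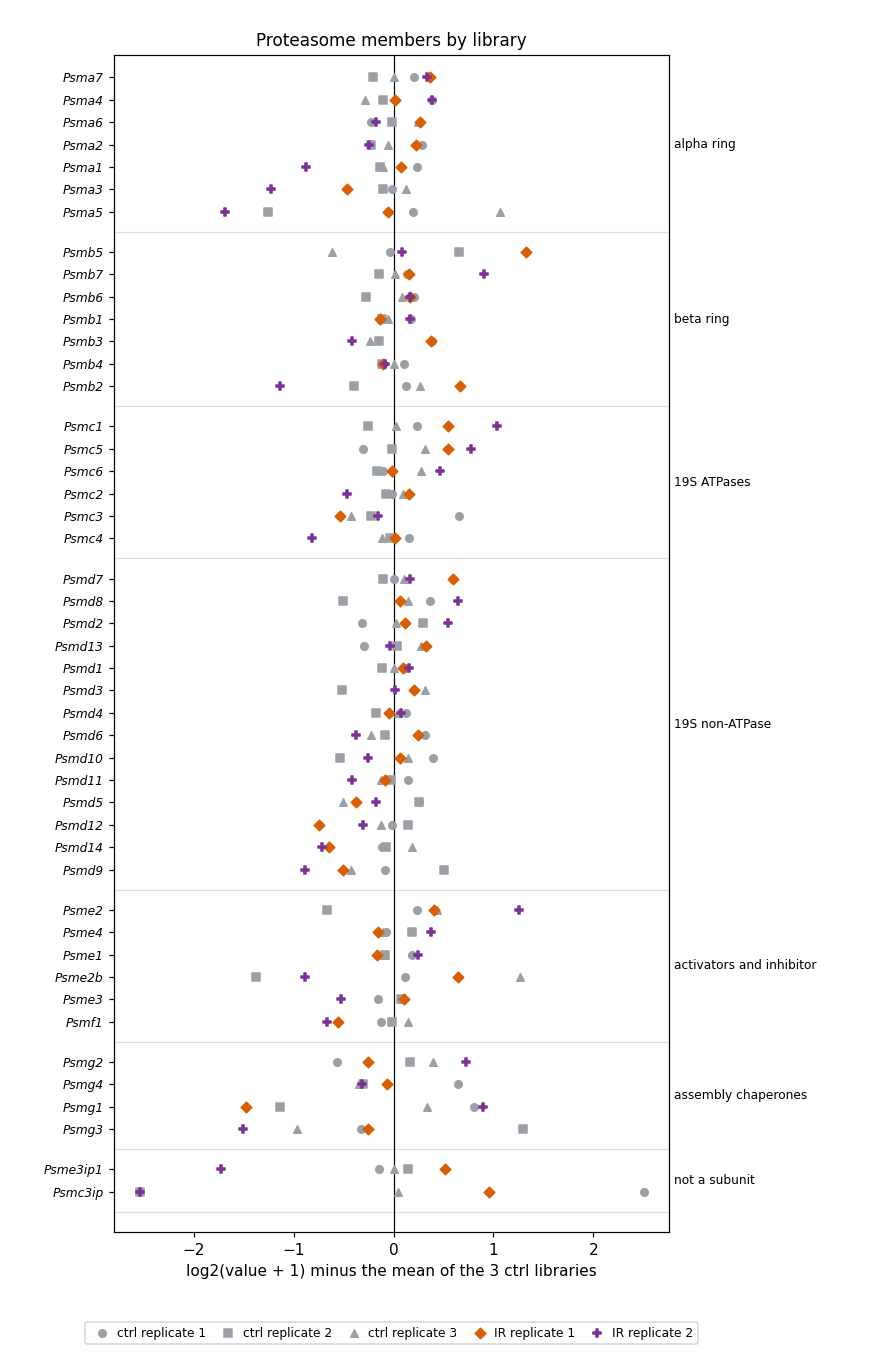
Each proteasome row by library, as log2(value + 1) minus the mean of the 3 ctrl libraries (horizontal axis), grouped by role; grey symbols are ctrl libraries, orange diamonds IR replicate 1 and purple crosses IR replicate 2. Both IR symbols lie to the left of all grey ones in 5 rows, and Psmc1, Psmc5, Psmb7, Psma7 and Psmd7 are the 5 members with both IR symbols to the right of all grey ones.

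The alpha ring forms the gate of the core particle. Of its 7 genes, 0 passed, 3 had positive and 4 negative log2 fold changes, and the median was -0.01. Psma7 was 780.1, 583.7 and 676.0 in ctrl and 868.4 and 852.3 in IR, with both IR libraries above all ctrl libraries. Its log2 fold change was 0.35 ± 0.24 (SE) at a limma adjusted p of 0.523. Psma3 was 143.7, 134.3 and 158.4 in ctrl and 104.7 and 61.3 in IR, with both IR libraries below, and a log2 difference of -0.85 ± 0.49 (SE) at a limma adjusted p of 0.428. For Psma3, 34.4% of the transcript is near-identical to other genes, so its reads may be shared. Psma1 was 349.0, 269.5 and 274.5 in ctrl and 310.3 and 160.5 in IR; IR replicate 1 lay within ctrl and IR replicate 2 lay below. Psma4 was 597.5, 423.9 and 374.5 in ctrl and 459.0 and 596.0 in IR, with IR replicate 2 near the highest ctrl library. Other genes match 76.7% of the Psma4 transcript, so reads of Psma4 may be shared too.

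The beta ring carries the proteolytic sites, and none of its 7 genes passed. Psmb5 encodes the subunit that cuts after hydrophobic residues, Psmb6 the one that cuts after acidic residues and Psmb7 the one that cuts after basic residues. Psmb6 was 457.2, 327.9 and 420.5 in ctrl and 445.9 and 447.2 in IR, with overlapping groups and a log2 fold change of 0.17 ± 0.29 (SE) at a limma adjusted p of 0.835. The 95% interval of that difference ran from -0.43 to 0.76. Psmb7 was 254.4, 209.2 and 235.0 in ctrl and 258.0 and 435.4 in IR. Both IR libraries were above ctrl, IR replicate 1 by a small margin (log2 fold change 0.53 ± 0.35 SE, limma adjusted p = 0.503). Nek6 matches 35.1% of the Psmb7 transcript, so reads of Psmb7 may be shared. Psmb5 was 51.5, 84 and 34.2 in ctrl and 134.6 and 56.3 in IR; IR replicate 1 was the highest library and IR replicate 2 lay within ctrl. Its log2 fold change was 0.71 ± 0.67 (SE) at a limma adjusted p of 0.666, with a 95% interval from -0.67 to 2.09. Other genes match 88.4% of the Psmb5 transcript at 95% identity or more, so reads of Psmb5 may have been shared or dropped in counting. Psmb1 of the same ring was 933.9, 765.5 and 796.5 in ctrl and 756.2 and 931.3 in IR, and its groups overlapped.

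The 6 ATPases of the 19S base form the ring that unfolds substrates. None passed. Psmc1 (GRCm38, chromosome 12, 100110154 to 100123405, plus strand) encodes an ATPase that helps open the gate of the core. It was 435.2, 310.6 and 375.9 in ctrl and 542.1 and 759.0 in IR, or 374 ± 62.3 (SD, n = 3) for ctrl against 651 ± 153 (SD, n = 2) for IR. Both IR libraries were above all ctrl libraries, IR replicate 2 by more. The log2 fold change of Psmc1 was 0.79 ± 0.28 (SE) at a limma adjusted p of 0.177, the smallest p of the family. Its 95% interval ran from 0.21 to 1.38. Other genes match 82.0% of the Psmc1 transcript, which makes its level uncertain. Psmc5, another ATPase of the ring, was 158.9, 194.6 and 245.3 in ctrl and 287.9 and 336.2 in IR, again with both IR libraries above ctrl, and a log2 fold change of 0.66 ± 0.36 (SE) at a limma adjusted p of 0.396. Psmc3 and Psmc4 had negative log2 fold changes and overlapping groups. Psmc3 was 1474.0, 798.4 and 697.2 in ctrl and 644.0 and 837.2 in IR; its ctrl replicate 1 stood above the other 4 libraries. Psmc4 was 469.9, 411.1 and 391.3 in ctrl and 426.2 and 238.7 in IR, with IR replicate 2 below the rest.

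The 14 non-ATPase genes of the 19S include ubiquitin receptors, the lid with its own deubiquitinase and assembly chaperones. None passed, 7 were positive and 7 negative. Psmd14 (chromosome 2, 61711694 to 61800376, plus strand) is the metalloprotease of the lid that removes ubiquitin chains as a substrate enters. It was 311.8, 320.6 and 384.0 in ctrl and 215.0 and 205.1 in IR, or 339 ± 39.4 (SD, n = 3) for ctrl against 210.1 ± 7.0 (SD, n = 2) for IR. Both IR libraries lay below all ctrl libraries and close to each other. On the log2 scale Psmd14 differed by -0.68 ± 0.33 (SE) at a limma adjusted p of 0.330, with a 95% interval from -1.36 to -0.0037. Psmd7, the partner of Psmd14 in the lid, was 398.9, 368.1 and 427.1 in ctrl and 600.1 and 443.8 in IR, above ctrl in both IR libraries, with a log2 fold change of 0.38 ± 0.28 (SE) at a limma adjusted p of 0.562. Psmd7 was named after its values were seen. The lid subunit Psmd12 was 258.6, 289.6 and 238.7 in ctrl and 155.2 and 211.0 in IR, with IR below ctrl (log2 fold change -0.53 ± 0.36 SE, limma adjusted p = 0.524). Psmd9, a chaperone of base assembly, was 136.9, 206.5 and 108.0 in ctrl and 101.9 and 78.1 in IR, also below ctrl (log2 fold change -0.70 ± 0.49 SE, limma adjusted p = 0.536). Psmd4, a receptor that binds ubiquitin chains, was 1326.0, 1077.9 and 1253.5 in ctrl and 1176.8 and 1275.1 in IR; its groups overlapped and its log2 fold change was 0.01, with a 95% interval from -0.43 to 0.45. Psmd8 was 999.0, 546.3 and 854.9 in ctrl and 813.2 and 1211.2 in IR, and ctrl replicate 2 and IR replicate 2 were its lowest and highest libraries.

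Activators open the core without the 19S, and Psmf1 encodes a protein first described as a proteasome inhibitor. None of these 6 genes passed. Psme1, one chain of the interferon-inducible activator, had the highest level of the family per kilobase of all annotated exons, 1032 scaled reads in ctrl and 1065 in IR. Its values were 2587.0, 2133.9 and 2120.8 in ctrl and 2022.8 and 2683.9 in IR, its groups overlapped and its log2 fold change was 0.04 (95% interval -0.38 to 0.46). Psme2, the partner chain, was 86.2, 45.7 and 99.3 in ctrl and 97.2 and 176.6 in IR, with a log2 fold change of 0.83 ± 0.56 (SE) at a limma adjusted p of 0.516. The row of its copy Psme2b was 38, 12.8 and 85.6 in ctrl and 55.2 and 18.5 in IR; the genes match over 82.5% of the Psme2 transcript, so reads may be split between them. Psme2b was named after its values were seen. Psmf1 was 300.9, 326.1 and 363.6 in ctrl and 223.4 and 206.8 in IR, with both IR libraries below ctrl and a log2 fold change of -0.61 ± 0.33 (SE) at a limma adjusted p of 0.387. Psme3, the nuclear activator, was 702.3, 824.0 and 828.6 in ctrl and 842.2 and 542.1 in IR, with IR replicate 2 below the other 4 libraries and IR replicate 1 at their top. Psme4, a large activator found in nuclei, was 713.3, 855.0 and 698.6 in ctrl and 674.9 and 974.2 in IR, with IR replicate 2 above ctrl and IR replicate 1 just below it.

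Assembly chaperones (Psmg1 to Psmg4) guide the alpha ring. All 4 were tested, 0 passed and their groups overlapped. Psmg3 was 50.7, 159.0 and 32.1 in ctrl and 53.3 and 21.8 in IR, with ctrl replicate 2 far above the rest, and Psmg1 was 44.8, 10.9 and 32.1 in ctrl and 8.4 and 47.9 in IR. Psmg4, the most abundant of the 4, was 219.8, 113.3 and 110.2 in ctrl and 133.7 and 112.6 in IR. At such levels the intervals are wide, from -2.52 to 0.75 for Psmg3. Of the 2 rows that encode no subunit, Psmc3ip was near the limit of detection, 32.1, 0 and 5 in ctrl and 10.3 and 0 in IR. Psme3ip1 was 230.7, 283.2 and 257.0 in ctrl and 367.4 and 76.4 in IR, so the IR libraries lay on opposite sides of ctrl (log2 fold change -0.61 ± 0.50 SE, limma adjusted p = 0.621). Without IR replicate 1, Psme3ip1 passed as lower (limma adjusted p = 0.0182), and without IR replicate 2 its direction turned.

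The IR libraries differed from each other more than ctrl libraries did across the proteasome family. The median absolute log2 difference was 0.46 between the IR libraries and 0.24 to 0.39 between pairs of ctrl libraries. For all genes tested the same values were 0.60 and 0.38 to 0.51.

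No deubiquitinase passed the test either, and more of them had values lower in IR than higher. Of 56 rows, 54 were tested, and Usp26 and Usp50 were too low. The 54 include 4 rows classed below as inactive or as no deubiquitinase. Of these 4, 3 had negative log2 fold changes and 1 (Usp53) had an unadjusted limma p under 0.05. With limma, 0 of 54 passed, where 1.14% of all genes tested were called higher and 0.360% lower. Unadjusted p was under 0.05 for 7 members, all lower in IR (13% of 54), where 7.20% of all genes were lower at that p and 7.76% higher. Both IR libraries lay below all ctrl libraries for 14 members (25.9%) and above for 5 (9.26%). For all genes the shares were 16.3% and 15.2%. Log2 fold changes were negative for 38 of 54 members, against 53.2% of all genes, and ran from -3.28 (Otub2) to 0.99 (Usp46). Their median was -0.25, against -0.05 for all genes. Among the 33 members with a mean of at least 200 scaled reads, 23 were negative and the median was -0.16, against -0.02 for the 5516 genes above that mean. No test of the family as a whole was made. Rescaling each library to the same total moved the median of all genes by -0.12. The family's median minus that of all genes was -0.19, a difference that scaling leaves nearly fixed by construction. It was -0.11 without ctrl replicate 1, -0.14 with array weights and -0.26 without ctrl replicate 3. The summed level of the 56 rows was 30675.6, 30550.9 and 27877 scaled reads in ctrl and 25914 and 27406 in IR. The groups did not overlap, but ctrl replicate 3 was close to IR replicate 2. Between the IR libraries the median absolute log2 difference over the family was 0.39, as large as the largest between ctrl pairs (0.31 to 0.39).

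**Figure D2:**
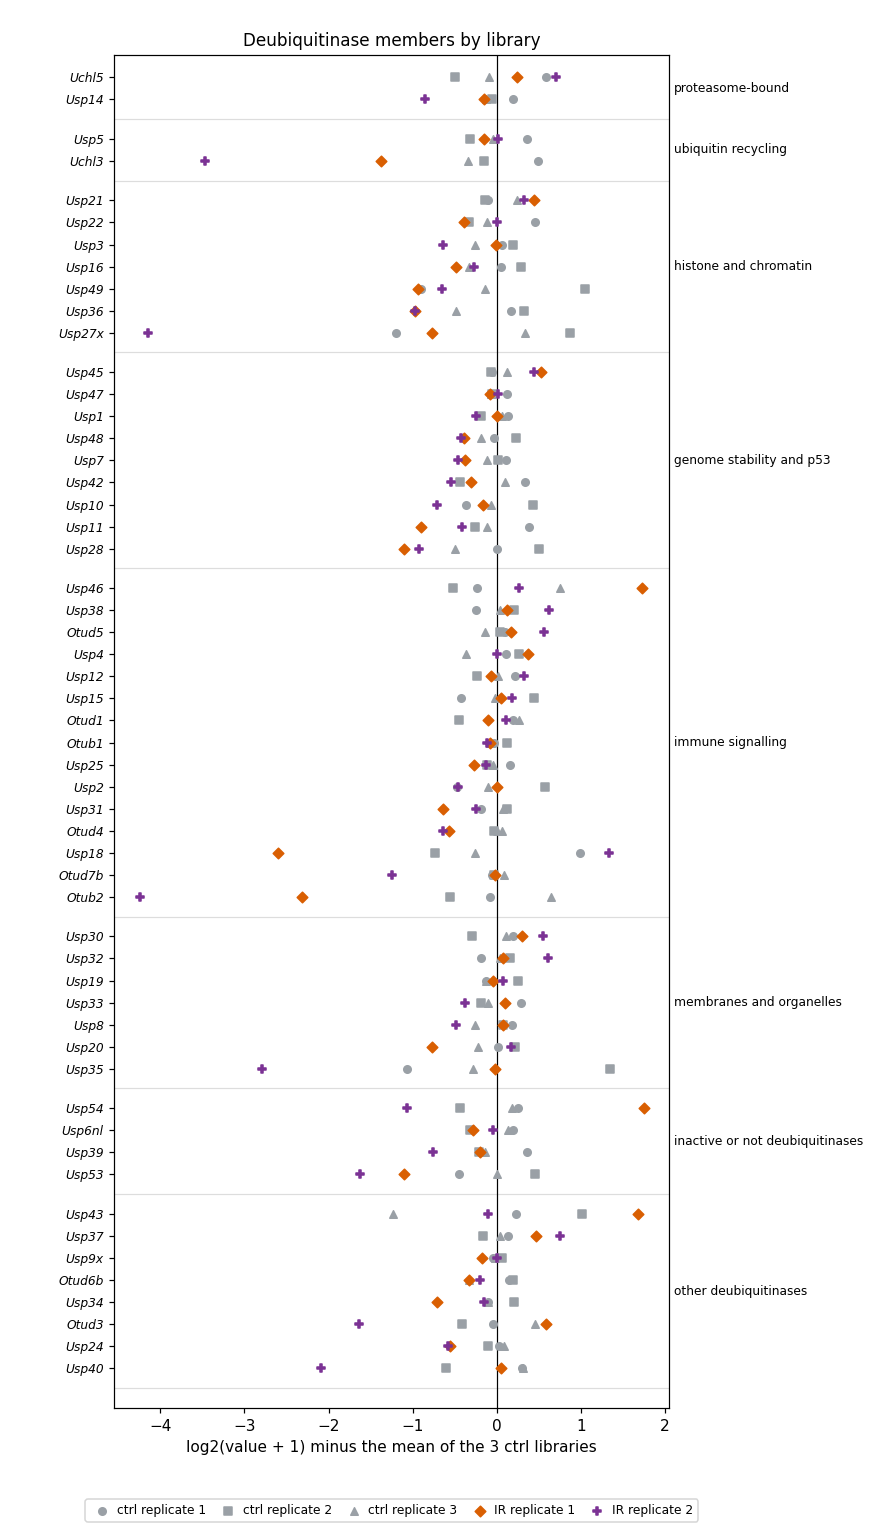
Each tested deubiquitinase row by library, as log2(value + 1) minus the mean of the 3 ctrl libraries (horizontal axis), grouped by role with the same symbols as for the proteasome. In 14 of the 54 rows both IR symbols lie to the left of all grey ones, and the widest scatter is in rows with few scaled reads, such as Otub2 and Usp27x.

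The deubiquitinases bound to the 19S are Usp14, which trims chains on docked substrates, and Uchl5. Usp14 was 174.9, 147.1 and 139.4 in ctrl and 137.4 and 84 in IR, with IR below ctrl, IR replicate 1 by a small margin, and a log2 difference of -0.51 ± 0.46 (SE) at a limma adjusted p of 0.652. Thoc1 matches 45.9% of the Usp14 transcript, so reads of Usp14 may be shared. Uchl5 was 307.6, 144.3 and 192.0 in ctrl and 241.2 and 332.9 in IR, with IR replicate 2 the highest library and IR replicate 1 within ctrl. Its log2 fold change was 0.47 ± 0.38 (SE) at a limma adjusted p of 0.607. Of the 3 deubiquitinases of the proteasome, Psmd14 and Usp14 had both IR libraries below ctrl, Uchl5 overlapped, and none passed.

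Both tested enzymes that recycle free ubiquitin had negative values and neither passed. Uchl3 (chromosome 14, 101653967 to 101696125, plus strand), which processes ubiquitin and Nedd8 precursors, was 104.0, 66.7 and 58.4 in ctrl and 28 and 5.8 in IR, or 76.4 ± 24.3 (SD, n = 3) for ctrl against 16.9 ± 15.7 (SD, n = 2) for IR. Both IR libraries lay below ctrl and IR replicate 2 was nearly without reads. The log2 difference was -2.42 ± 0.88 (SE) at a limma adjusted p of 0.183, with a 95% interval from -4.23 to -0.60. Without IR replicate 1, Uchl3 passed (limma adjusted p = 0.0187). The gene shares 77.1% of its transcript with the copy Uchl4, so its level is uncertain. Usp5, which takes apart unanchored chains, was 528.2, 331.6 and 401.5 in ctrl and 371.1 and 416.9 in IR, with overlapping groups and a log2 fold change of -0.07.

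Of 7 enzymes that act on histones and chromatin, 6 had negative log2 fold changes, where 53.2% of all genes did, and 0 passed. Usp36 (chromosome 11, 118259651 to 118290244, minus strand), a nucleolar deubiquitinase, was 693.9, 773.8 and 443.1 in ctrl and 314.1 and 314.3 in IR, or 637 ± 173 (SD, n = 3) for ctrl against 314 ± 0.141 (SD, n = 2) for IR. The IR libraries were nearly equal and below ctrl, though ctrl replicate 3 stood closer to them than to ctrl replicate 2. The log2 fold change of Usp36 was -0.98 ± 0.29 (SE) at a limma adjusted p of 0.0890, the smallest p of all members. Its 95% interval ran from -1.57 to -0.38. After rescaling to equal totals Usp36 passed (limma adjusted p = 0.0436). Usp16, which removes ubiquitin from histone H2A, was 797.8, 943.6 and 613.2 in ctrl and 552.4 and 641.3 in IR, with overlapping groups (log2 fold change -0.38 ± 0.25 SE, limma adjusted p = 0.511). Usp22, part of the SAGA coactivator, was 1109.7, 642.2 and 748.3 in ctrl and 616.9 and 813.6 in IR, and Usp3, another histone enzyme, was 933.0, 1018.5 and 744.6 in ctrl and 886.1 and 570.7 in IR. IR replicate 1 was just below ctrl in Usp22, IR replicate 2 was below it in Usp3, and the other IR library lay within ctrl in both genes. Usp21, named after its values were seen, was the member of this group above ctrl in both IR libraries, 105.6, 103.2 and 135.0 in ctrl and 155.2 and 142.9 in IR. The X-linked gene Usp27x was 6.7, 31.1 and 21.2 in ctrl and 9.3 and 0 in IR, too few reads for a narrow interval (-5.96 to 1.04).

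Of 9 enzymes of genome stability and the p53 pathway, 8 were negative, 1 was positive and 0 passed, with a median of -0.42. For comparison, 53.2% of all genes tested and 38 of the 54 deubiquitinases were negative, with medians of -0.05 and -0.25. Usp28, which acts in the DNA damage checkpoint, was 175.0, 247.6 and 124.1 in ctrl and 81.3 and 91.6 in IR, with IR below ctrl and a log2 fold change of -1.01 ± 0.47 (SE) at a limma adjusted p of 0.310. Usp7 (chromosome 16, 8689595 to 8792308, minus strand) stabilises Mdm2 and p53. Its values were 2172.0, 2022.5 and 1846.3 in ctrl and 1540.4 and 1460.9 in IR, both IR libraries being below all ctrl libraries. Usp7 differed by -0.42 ± 0.20 (SE) at a limma adjusted p of 0.323 on the log2 scale, with a 95% interval from -0.83 to -0.01. Usp48 was 1154.5, 1387.6 and 1037.4 in ctrl and 902.0 and 883.4 in IR, below ctrl in both IR libraries (log2 fold change -0.41 ± 0.22 SE, limma adjusted p = 0.395). Usp11, named after its values were seen, was the fourth below ctrl, at 218.9, 139.8 and 154.0 in ctrl and 89.7 and 126.1 in IR. The share below ctrl in both IR libraries was 44.4% of these 9, 25.9% of the deubiquitinases and 16.3% of all genes. Usp47, an enzyme of base excision repair, was 1485.8, 1316.3 and 1307.5 in ctrl and 1289.0 and 1379.3 in IR with overlapping groups. The positive member was Usp45, also named after its values were seen, at 145.3, 145.2 and 165.7 in ctrl and 219.7 and 205.9 in IR, with a log2 fold change of 0.48 ± 0.40 (SE) at a limma adjusted p of 0.611. The summed level of the 9 genes was 5666.5 to 6418.9 in ctrl and 5040.0 and 4886.8 in IR, so these groups did not overlap. Neither did the sum over all deubiquitinase rows, and the role group as a whole was not tested.

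**Figure D3:**
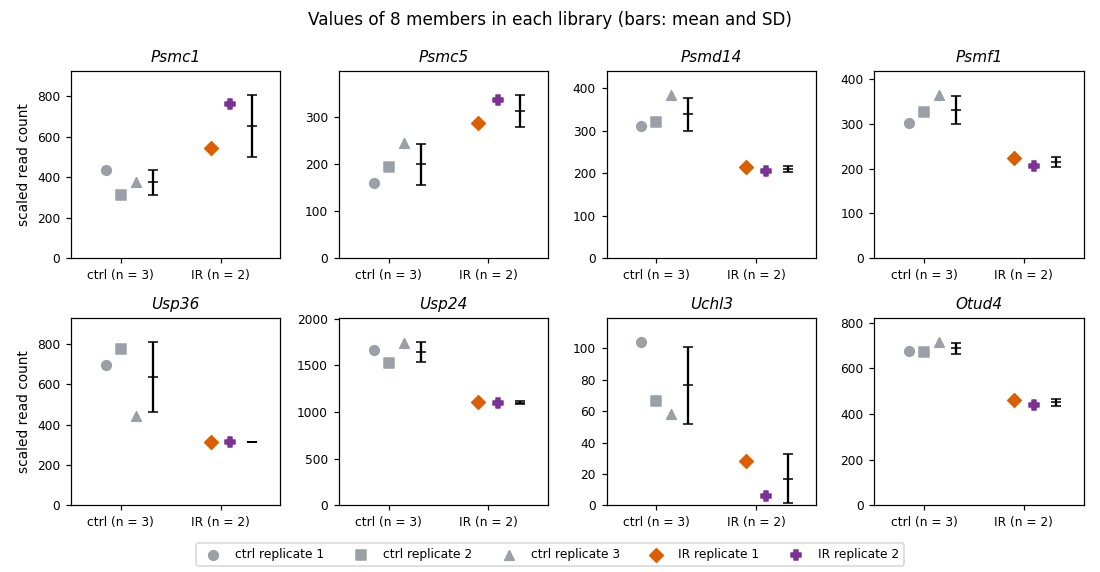
Scaled read counts of 4 proteasome and 4 deubiquitinase members in each library (vertical axes start at 0), with the mean and SD of each group as a black bar. The 8 were taken from the members with the smallest p-values in each family, so their separation describes the choice. Usp53, whose p-value was smaller than those of Uchl3 and Otud4, is not shown. In all 8 the IR libraries lie outside the ctrl range, as in 31.5% of all genes tested. They lie above it for Psmc1 and Psmc5 and below it for the others, and none of the 8 passed the limma test.

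The largest role group, 15 enzymes of immune signalling, was divided. In it 7 were positive, 8 negative and 0 passed, with a median of -0.10. Otud4, which acts in innate immune signalling, was 677.8, 669.6 and 714.7 in ctrl and 461.8 and 439.6 in IR, with narrow groups and IR below ctrl. Otud4 differed by -0.61 ± 0.25 (SE) at a limma adjusted p of 0.244 on the log2 scale, with a 95% interval of -1.12 to -0.09. Usp25, the most abundant of the deubiquitinases per kilobase of all annotated exons (425 scaled reads in ctrl), was 2452.6, 2031.6 and 2140.5 in ctrl and 1819.0 and 2007.2 in IR, with IR replicate 2 only just below the lowest ctrl library. Otub2 was 16.9, 11.9 and 28.5 in ctrl and 2.8 and 0 in IR, low everywhere and lowest in IR (log2 fold change -3.28 ± 1.74 SE, limma adjusted p = 0.380). Usp31, named after its values were seen, was the fourth member below ctrl, at 153.8, 190.9 and 184.0 in ctrl and 112.2 and 147.1 in IR. The share below ctrl in both IR libraries was 26.7% of these 15 and 16.3% of all genes. Otud7b, which restrains non-canonical NF-kB signalling, was 333.0, 338.9 and 366.5 in ctrl and 339.3 and 145.4 in IR. There IR replicate 1 lay within ctrl and IR replicate 2 far below, and without IR replicate 1 the gene passed (limma adjusted p = 0.0436). Usp18 removes the ubiquitin-like protein Isg15 and is induced by interferon. It was 134.4, 40.2 and 56.1 in ctrl and 10.3 and 170.6 in IR, so the IR libraries were the lowest and the highest of all. Its log2 fold change was -0.63 ± 0.96 (SE) at a limma adjusted p of 0.805. Otub1, which blocks ubiquitin-conjugating enzymes, was 567.1, 630.3 and 546.1 in ctrl and 546.8 and 533.7 in IR, with a log2 fold change of -0.10 and an interval from -0.62 to 0.42. Usp15 was 445.4, 807.5 and 589.9 in ctrl and 616.0 and 673.3 in IR, inside the ctrl range in both IR libraries. Otud5, named after its values were seen, was 1181.5, 1141.9 and 1008.9 in ctrl and 1250.7 and 1635.7 in IR, above ctrl in both IR libraries (log2 fold change 0.37 ± 0.22 SE, limma adjusted p = 0.437). Usp38 was 978.6, 1338.3 and 1187.0 in ctrl and 1258.2 and 1781.1 in IR, with IR replicate 2 the highest.

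Of 7 enzymes of membranes and organelles, 3 were positive, 4 negative and 0 passed. Usp30, which counters mitophagy at the mitochondrial outer membrane, was 127.6, 90.4 and 119.7 in ctrl and 137.4 and 163.9 in IR, above ctrl in both IR libraries (log2 fold change 0.43 ± 0.47 SE, limma adjusted p = 0.712). Usp32, an enzyme of the endomembranes, was 638.1, 809.3 and 744.6 in ctrl and 766.5 and 1111.2 in IR, with IR replicate 2 the highest. Usp8, which sorts receptors on endosomes, was 1087.7, 1003.9 and 802.3 in ctrl and 1003.9 and 680.8 in IR, and Usp19 of the endoplasmic reticulum was 1062.3, 1393.1 and 1070.2 in ctrl and 1130.1 and 1223.0 in IR. Usp8 was lowest in IR replicate 2, and both IR values of Usp19 lay within ctrl. Usp35 was 7.6, 44.8 and 13.8 in ctrl and 16.8 and 1.6 in IR, low in all libraries.

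Among 4 rows classed as inactive or as no deubiquitinase, 0 passed. Usp53, long classed as a catalytically inactive relative, was 127.6, 240.3 and 175.2 in ctrl and 81.3 and 56.3 in IR, with IR below ctrl and a log2 fold change of -1.36 ± 0.49 (SE) at a limma adjusted p of 0.178. Its 95% interval ran from -2.37 to -0.35. Usp39, a splicing factor, was 367.7, 245.7 and 258.4 in ctrl and 249.6 and 168.9 in IR, and Usp6nl, which acts on Rab GTPases, was 448.8, 315.1 and 430.7 in ctrl and 323.4 and 381.6 in IR. The groups of Usp6nl overlapped, and Usp39 was lowest in IR replicate 2.

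Of the 8 other tested deubiquitinases, 6 were negative, 2 positive and 0 passed. Usp24 (chromosome 4, 106316213 to 106441322, plus strand), a very large enzyme, was 1664.9, 1524.6 and 1735.4 in ctrl and 1110.5 and 1092.7 in IR, or 1642 ± 107 (SD, n = 3) for ctrl against 1102 ± 12.6 (SD, n = 2) for IR. The IR values were nearly equal and both were well below ctrl. Usp24 differed by -0.57 ± 0.21 (SE) at a limma adjusted p of 0.177 on the log2 scale, with a 95% interval from -1.0 to -0.15. Usp34, another very large enzyme, was 1937.1, 2388.8 and 1932.4 in ctrl and 1272.2 and 1866.0 in IR, with IR replicate 2 only just below ctrl (log2 fold change -0.43 ± 0.21 SE, limma adjusted p = 0.347). Usp37, which acts in the cell cycle, was 329.6, 268.6 and 308.0 in ctrl and 416.9 and 505.2 in IR, above ctrl in both IR libraries (log2 fold change 0.61 ± 0.30 SE, limma adjusted p = 0.344). Usp9x was 1475.6, 1594.0 and 1500.2 in ctrl and 1347.0 and 1523.1 in IR, with a log2 fold change of -0.09 and an interval from -0.51 to 0.33.

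**Figure D4:**
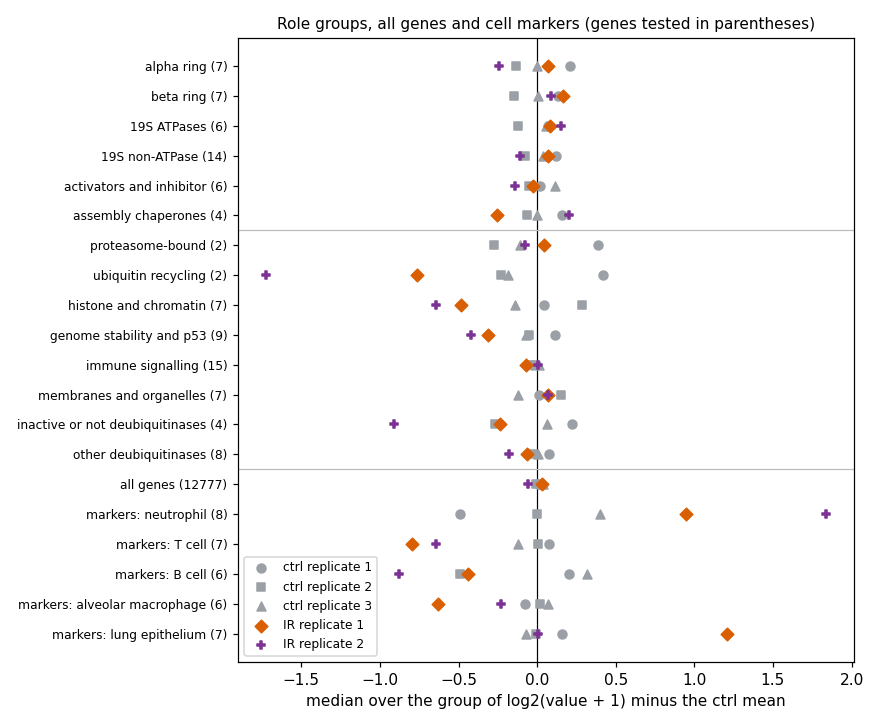
Median over each role group, all genes and 5 sets of cell markers of log2(value + 1) minus the ctrl mean (horizontal axis), by library; proteasome groups are on top, deubiquitinase groups in the middle and reference sets at the bottom. In the 6 proteasome groups the IR symbols lie between -0.26 and 0.21. Of the 8 deubiquitinase groups, 4 (ubiquitin recycling, histones, genome stability and, by a small margin, the other deubiquitinases) have both IR symbols left of all ctrl symbols. The ubiquitin recycling group has 2 tested genes, Uchl3 (log2 fold change -2.42) and Usp5 (-0.07, overlapping). The neutrophil markers have both IR symbols on the right (0.95 and 1.84).

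Genes of the pathway outside the naming rule were counted beside the members. Of the 3 immunoproteasome subunits, 0 passed. Psmb8 was 1405.5, 989.3 and 1269.5 in ctrl and 1447.9 and 1214.6 in IR, with overlapping groups (log2 fold change 0.13 ± 0.22 SE, limma adjusted p = 0.824). Among 21 other proteasome parts and regulators, 0 passed and 5 had an unadjusted p under 0.05 (3 higher and 2 lower in IR), where 15.0% of all genes did, with a median log2 fold change of -0.02. Txnl1, a thioredoxin-like protein bound to the 19S, was 455.5, 464.0 and 507.4 in ctrl and 824.4 and 832.2 in IR, with narrow groups and IR above ctrl (log2 fold change 0.80 ± 0.25 SE, limma adjusted p = 0.108). Sem1, the smallest subunit of the 19S, was 1495.9, 1109.9 and 1360.0 in ctrl and 1819.0 and 2122.4 in IR, also above ctrl (log2 fold change 0.58 ± 0.21 SE, limma adjusted p = 0.180). Akirin2, which carries proteasomes into the nucleus, was 432.7, 419.3 and 367.2 in ctrl and 273.9 and 157.1 in IR, below ctrl (log2 fold change -0.96 ± 0.33 SE, limma adjusted p = 0.155). Without IR replicate 1, Akirin2 passed as lower (limma adjusted p = 0.0224). The shuttle factor Ubqln1 was 1526.3, 1098.0 and 1372.5 in ctrl and 846.9 and 975.0 in IR, below ctrl as well (log2 fold change -0.54 ± 0.22 SE, limma adjusted p = 0.248). Among 8 ubiquitin and E1 genes, 0 passed, 5 were positive and 3 negative, with a median of 0.13. Among 21 deubiquitinases and related proteases with other names, 0 passed, 10 were positive and 11 negative, with a median of -0.17. The genes named from these lists, and Nfe2l1 and Nfe2l2, were named after their values were seen.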

How the data were processed

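The deposited table holds 1 value per gene and library. The authors made these values from read counts; HISAT2, HTSeq and mm10 are named, without role or version, per the submitters' processing notes. The values have 1 decimal and rise in steps below 1, so they were taken as a scaled signal that the authors deposited; neither the scaling, annotation and strandedness nor a gene filter was stated. Whole reads were not recovered from them, so no count test was used and counting error was not estimated.

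Genes with at least 10 in at least 2 libraries (12777) were fitted with limma 3.58.1 (R 4.3.3) on log2(value + 1), with a mean trend and robust estimation, over all 5 libraries. Two-sided p-values were adjusted over these genes (Benjamini-Hochberg) and called under 0.05. Intervals are 95% intervals from the same fit. Adding 1 narrows the log2 distance between low values. The fit compares means of log2 values, so a log2 fold change can differ from the ratio of the group means. Usp18 had means of 76.9 in ctrl and 90.45 in IR and a log2 fold change of -0.63. The procedure was tested on simulated data.

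Coordinates and exon lengths came from GENCODE vM21 on GRCm38, the assembly also called mm10, and the annotation matched all 102 members, 1 of them by an older symbol. Transcripts were compared by blastn at 95% identity. At least 50% of the transcript matched other genes for 9 proteasome and 3 deubiquitinase rows. Rows on opposite strands of 1 locus (7 and 10 members) may share reads.

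The members, role groups and lists were chosen with earlier results of these data known. Named were the 3 smallest p-values and 2 highest means per role group, the 10 smallest p-values per family and 10 genes of known function; other names are marked. Alternatives covered scaling, pseudocount, filter, robust estimation, array weights and each library left out.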

Additional observations from a re-analysis of the deposited data

How the results depend on the processing

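All values rest on 2 IR libraries. The 13 alternatives were 2 other scalings, 2 pseudocounts, 2 filters, robust estimation off, array weights and each of the 5 libraries left out. After rescaling to equal totals, 1 deubiquitinase was called lower (Usp36) and the family's median log2 fold change was -0.37; the median of all genes moved with it. That setting also turned Psmb1 (-0.10), Psmd4 (-0.11), Psme1 (-0.084), Psme4 (-0.013), Usp15 (-0.010) and Usp19 (-0.11). Array weights turned Psmd4 (-0.018) and Nfe2l1 (0.076), and median-ratio factors turned Nfe2l1 (0.0068). With a pseudocount of 10, 314 genes were called in place of 192. With 1 library left out, all genes called ran from 19 (without ctrl replicate 1) to 1006 (without IR replicate 1), proteasome members lower from 0 to 1 (Psme3ip1), and deubiquitinases lower from 0 to 2 (Otud7b and Uchl3). The deubiquitinase median ran from -0.30 (without ctrl replicate 3) to -0.13 (without IR replicate 2), and the cause was not tested. Members with an unadjusted p under 0.05 numbered 0 to 6 in the proteasome family and 4 to 15 among deubiquitinases over these settings, while the share of all genes ran from 10.4% to 22.8%. The highest values all came without IR replicate 1 (6 of 45 and 15 of 53 members tested there).

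Leaving out 1 library turned the direction of 22 named genes, whose log2 fold changes ran from -0.13 to 0.12 for Nfe2l1, from -0.88 to 0.070 for Psma1, from -0.13 to 0.17 for Psmb1, from -0.010 to 0.26 for Psmb8, from -2.07 to 0.95 for Psmc3ip, from -0.82 to 0.011 for Psmc4, from -0.074 to 0.076 for Psmd4, from -0.17 to 0.24 for Psme1, from -0.88 to 0.64 for Psme2b, from -0.53 to 0.11 for Psme3, from -1.73 to 0.52 for Psme3ip1, from -0.16 to 0.37 for Psme4, from -1.48 to 0.90 for Psmg1, from -0.36 to 0.13 for Psmg4, from -0.10 to 0.33 for Usp15, from -2.60 to 1.33 for Usp18, from -0.055 to 0.14 for Usp19, from -0.39 to 0.031 for Usp22, from -0.085 to 0.023 for Usp47, from -0.23 to 0.11 for Usp5, from -0.49 to 0.069 for Usp8 and from -0.18 to 0.00064 for Usp9x. Over all alternatives, 903 of 953 values of the 74 named genes kept direction and call, and 6 passed only under 1 alternative: Usp36 after rescaling, and Psme3ip1, Otud7b, Uchl3, Akirin2 and Nfe2l2 without IR replicate 1. With an IR library left out, the lone IR library is assumed to vary as the ctrl libraries do. No paired analysis was possible because the labels give no replicate numbers that pair libraries. Counting error was not computed, so what depth limits is unknown. Genes with few scaled reads have wide intervals.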
